A study of Mus musculus with 60 samples.

Results

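Plexins are cell-surface receptors for semaphorins, secreted or membrane-bound guidance proteins first studied for how they steer axons. A plexin bound by its semaphorin acts inside the cell on small GTPases and the cytoskeleton, and most class 3 semaphorins also need a neuropilin as co-receptor. Trimethylation of lysine 27 of histone H3 (H3K27me3) is set by Polycomb Repressive Complex 2 and marks developmental genes that are kept silent, often as a broad domain over the start site. The chromatin at 7 plexin genes, Plxna1, Plxna2, Plxna4, Plxnb1, Plxnb2, Plxnc1 and Plxnd1, is described here out of 21938 protein-coding genes. The 7 genes were chosen by name with their H3K27me3 values known, so every H3K27me3 value of these genes below is a description and carries no test. Anti-HA values did not enter that choice and were tested.

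CUT&RUN, which sequences the DNA that an antibody-tethered nuclease cuts out of chromatin, had been run in C3H 10T1/2 cells, a clonal line of mouse mesenchymal progenitors. All cells carried a lentiviral transgene for HA-tagged histone H3.1, in the wild-type form (H3WT) or with cysteine in place of a tail arginine in H3R2C, H3R8C, H3R17C and H3R26C, under a constitutive promoter and selected with puromycin, and all kept their own H3 genes. Of 60 samples, 30 with anti-H3K27me3 or anti-HA were used, and the 30 with anti-H3K4me3 or IgG were left out. Every one of the 10 combinations of genotype and antibody had 3 labelled replicates, of which 2 held the same list value for value and were counted as 1, so that 20 lists remained. The H3R17C anti-H3K27me3 list of replicate 1 was left out because its name gives another mark than its label, so 9 anti-H3K27me3 lists were used, 2 per genotype but 1 for H3R17C, and 10 anti-HA lists.

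The anti-H3K27me3 lists held 20077 to 24598 peaks and the anti-HA lists 15344 to 52083. The H3WT anti-HA list of replicates 1 and 2 stood apart, with 15344 peaks of median length 10.7 kb against 0.8 to 1.6 kb in the mutants, and each HA difference printed with a test is also given without it. The other H3WT anti-HA list also lay outside the mutants, with 37907 peaks of median length 2.65 kb against 46398 to 52083 peaks. Leaving out 1 list therefore does not make H3WT like the mutants in this respect. Read depth was not known from the lists. A peak is reported only above the level of its own list, so no peak does not mean no signal. In the 9 anti-H3K27me3 lists no peak lay over the start sites of the 6 mesenchymal genes Col1a1, Col1a2, Vim, Fn1, Thy1 and Pdgfrb or of the 4 widely used genes Actb, Gapdh, Tbp and Hprt, whereas 3 of 6 neural genes had one in every list.

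Each gene was read in a window of its body with 20 kb on each side. Signal is the coverage summed over the peaks inside the window, divided by the median over the windows that had peaks in all lists of the same antibody, so that 1 is a typical marked window of that list. The weakest peak of a list corresponded to 0.0677 to 0.110 on this scale for H3K27me3 and 0.0780 to 0.221 for HA. A start site counted as covered when a peak came within 1 kb of it, counted from the annotated 5′ end of the gene.

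Plxnc1, which codes for the receptor of the membrane-anchored semaphorin Sema7a, held H3K27me3 over its start site in every list except those of H3R2C. The H3K27me3 pattern at this start and the HA signal at Plxnc1 and Plxnb2 carry much of what follows, so the bases from 250 before to 50 after the RefSeq start of these 2 genes are shown, 5′ to 3′ on the coding strand of GRCm38.p6, with CG pairs in capitals. Entries were matched for 5 of the 7 genes, and Plxna1 and Plxna4 had none. The Plxnc1 sequence lies at chr10:94944796-94945095, minus strand, and the Plxnb2 sequence at chr15:89180739-89181038, minus strand.
Plxnc1: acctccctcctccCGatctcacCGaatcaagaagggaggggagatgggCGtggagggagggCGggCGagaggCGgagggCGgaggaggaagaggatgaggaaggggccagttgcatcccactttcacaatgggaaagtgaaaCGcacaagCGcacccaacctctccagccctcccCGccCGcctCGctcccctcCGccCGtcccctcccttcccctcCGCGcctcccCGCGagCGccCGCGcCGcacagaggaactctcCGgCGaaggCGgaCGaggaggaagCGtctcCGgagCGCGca
Plxnb2: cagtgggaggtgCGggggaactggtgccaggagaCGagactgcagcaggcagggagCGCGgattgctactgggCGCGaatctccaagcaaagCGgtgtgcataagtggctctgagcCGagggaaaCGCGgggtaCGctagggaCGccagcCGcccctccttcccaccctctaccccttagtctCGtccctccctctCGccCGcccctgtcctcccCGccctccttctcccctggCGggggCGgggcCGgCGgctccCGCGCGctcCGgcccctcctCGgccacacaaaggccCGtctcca
The Plxnc1 promoter held 30 CG pairs and that of Plxnb2 27, against a median of 7 over 32851 promoters of the same length, and 11.7% and 15.5% of those promoters held at least as many. Plxnb1 held 36 CG pairs, Plxna2 25 and Plxnd1 23, and a second Plxnb2 start further downstream held 15. All 5 genes thus had promoters with more CG pairs than the median, and of these 5 only Plxnc1 had H3K27me3 over its start.

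By H3K27me3, Plxna4 and Plxnc1 had peaks over the start site or body, and Plxnb1 had peaks only beyond its end. Plxna1 (chr6:89316314-89362620, minus strand) and Plxna2 (chr1:194618218-194816869, plus strand), receptors that pair with neuropilins, had no H3K27me3 peak in the window in any of the 9 lists. The same held for Plxnb2 (chr15:89155549-89180788, minus strand), a receptor of class 4 semaphorins, and Plxnd1 (chr6:115954811-115995005, minus strand), the receptor of Sema3e in blood vessels. Among all 21938 protein-coding genes, 12158 had no H3K27me3 peak in the window in any of these lists and 857 had a peak over the start site in all of them.

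Plxna4, a receptor for Sema3a and Sema6a in axon guidance, lies at chr6:32144268-32588192 on the minus strand, spans 444 kb and shares its window with no other protein-coding gene. Its scaled H3K27me3 signal was 0.294 in H3WT replicates 1 and 2 and 0.317 in H3WT replicate 3. In H3R8C it was 0.303 and 0.317, and the H3R8C and H3WT lists overlapped. The single H3R17C list had 0.906, and the H3R26C lists had 1.62 and 1.61. H3R2C was highest, at 3.79 in replicates 1 and 2 and 3.05 in replicate 3. From H3R2C down to H3R17C no lists of neighbouring genotypes overlapped, and every list of these 3 mutants lay above both H3WT lists. The mean was 0.305 ± 0.0158 (SD, n = 2) in H3WT, 1.61 ± 0.00724 (SD, n = 2) in H3R26C and 3.42 ± 0.526 (SD, n = 2) in H3R2C, which is 5.27 and 11.2 times the H3WT mean. Both H3R2C lists lay above both H3WT lists in 39.4% of the 8190 windows compared, and both H3R26C lists did so in 30.2%.

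**Figure D1:**
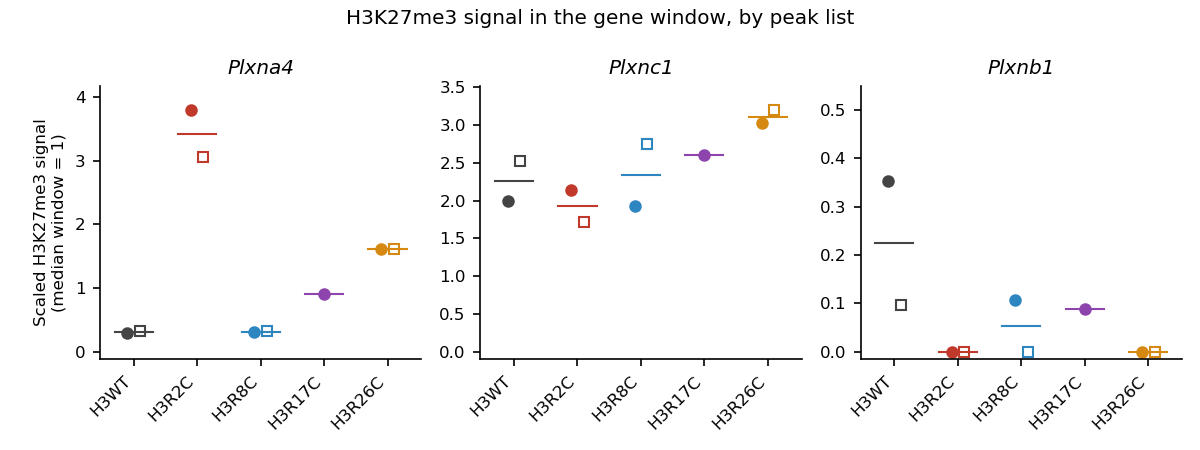
Scaled H3K27me3 signal (y axis, 1 is the median marked window of a list) at the 3 plexin genes with any H3K27me3 in the window, by genotype, with filled circles for replicates 1 and 2 (H3R17C: replicates 2 and 3), open squares for replicate 3 and bars for means; each panel has its own scale. At Plxna4 the H3R2C lists reach 3.05 and 3.79 and the H3R26C lists about 1.6, while H3WT and H3R8C stay near 0.3.

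The form of the Plxna4 domain differed as well as its amount. All 9 lists had H3K27me3 at the start site. In H3WT the peaks there were 1.8 kb to 2.7 kb long and did not span the start base itself, with the nearest edges 0.341 kb and 0.709 kb away. In H3R26C 1 peak ran across the start, 15.25 kb long in replicates 1 and 2 and 8.65 kb in replicate 3, and in H3R2C it was 19.5 kb and 10.8 kb long. A further block 10 kb to 20 kb upstream was present in both lists of H3R2C and H3R26C, in the H3R17C list and in H3WT replicate 3, and in neither H3R8C list.

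H3R2C differed from H3R26C mainly in the body of Plxna4. More than 20 kb downstream of the start, the long first introns held 9 peaks in H3R2C replicates 1 and 2 and 3 peaks in H3R2C replicate 3, the farthest ending 263 kb and 177 kb into the gene. H3WT and H3R26C had none there, and H3R8C replicate 3 and H3R17C had 1 each near 330 kb. The share of the gene under peaks was 12.0% and 4.40% in H3R2C, 2.52% and 1.33% in H3R26C, 0.608% and 0.777% in H3WT, 0.606% and 1.14% in H3R8C and 1.24% in H3R17C. Within 10 kb of the start, a distance chosen after the peaks were seen, the scaled signal was 1.52 ± 0.287 (SD, n = 2) in H3R2C and 1.31 ± 0.106 (SD, n = 2) in H3R26C. Beyond 10 kb it was 1.90 ± 0.813 and 0.299 ± 0.113 (SD, n = 2 each). The 2 mutants were thus close at the start and apart in the rest of the window.

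**Figure D2:**
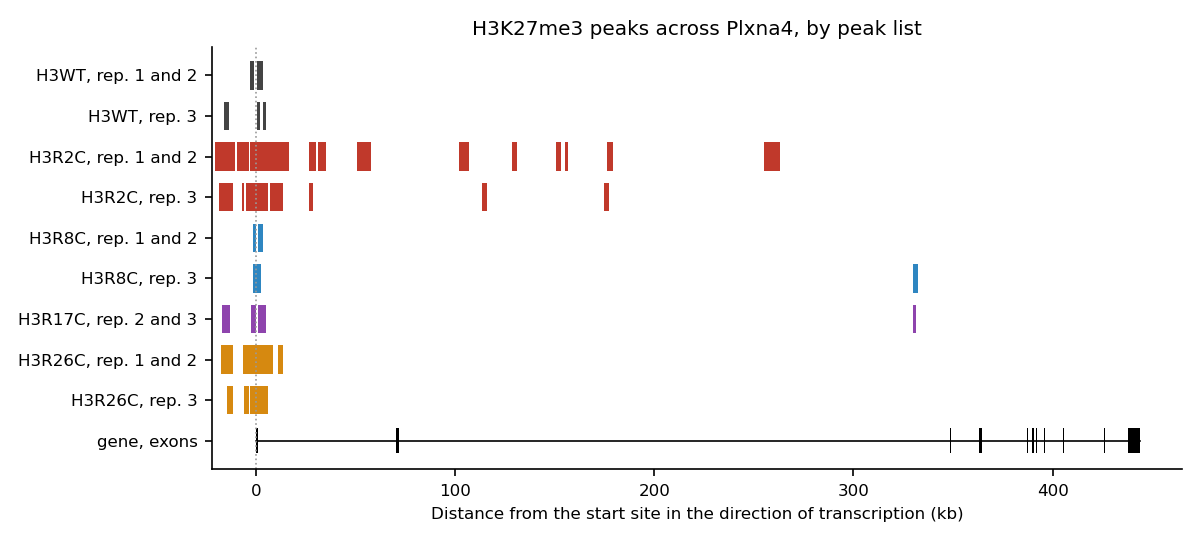
H3K27me3 peaks (coloured blocks) in the 9 lists across Plxna4, by distance from the start site in kb along the direction of transcription, with exons in black on the bottom line. Blocks around the start are wider in H3R2C and H3R26C than in H3WT and H3R8C, and only the H3R2C lists have several peaks between 20 kb and 263 kb.

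By the rule of highest Pearson correlation of log2 signal over the 9 lists, the genes most like Plxna4 were Grhl2 (r = 0.976), Strbp (r = 0.973) and Fabp12 (r = 0.970) out of 8189 windows. The 9 points share genotypes and list depth, so these values are descriptions. Mean scaled H3K27me3 signal at Grhl2 was 1.63 in H3WT, 3.73 in H3R26C and 5.98 in H3R2C, and at Fabp12 it was 0.0838, 0.584 and 2.10. Strbp had none in H3WT, 0.393 in H3R26C and 0.518 in H3R2C. All 3 had the order H3WT, H3R26C, H3R2C that Plxna4 had, which follows from how they were picked.

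Plxnc1 lies at chr10:94790866-94944835 on the minus strand, spans 154 kb and shares its window with Cep83. Over its whole window H3R2C hardly stood out: scaled H3K27me3 signal was 2.14 and 1.71 in H3R2C, 2.00 and 2.53 in H3WT, 1.93 and 2.75 in H3R8C and 2.60 in the H3R17C list. H3R26C was highest, at 3.03 and 3.20, above every list of the other genotypes and 1.38 times the H3WT mean. Both H3R26C lists lay above both H3WT lists in 30.2% of the 8190 windows compared. The H3R2C lists overlapped those of H3WT and H3R8C.

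The position of the mark at Plxnc1 did set H3R2C apart. A peak lay over the start site in both lists of H3WT, H3R8C and H3R26C and in the H3R17C list, 7.85 kb to 13.75 kb long, and in neither H3R2C list, where the nearest peak began 14.2 kb and 14.4 kb downstream. Within 10 kb of the start, scaled signal was 1.05 ± 0.150 (SD, n = 2) in H3WT, 1.03 ± 0.218 in H3R8C, 0.893 in H3R17C and 1.54 ± 0.345 in H3R26C, and no H3K27me3 peak was found in H3R2C. Beyond 10 kb it was 1.92 ± 0.301 in H3R2C and 1.21 ± 0.225 in H3WT (SD, n = 2 each), and the H3R2C lists, at 2.14 and 1.71, lay above the H3WT lists, at 1.05 and 1.37. The distance of 10 kb was chosen after the peaks were seen, and the order beyond it was not counted over all genes. Over whole windows both H3R2C lists lay above both H3WT lists in 39.4% of the 8190 compared. Several exons between 75 kb and 114 kb were under peaks in H3R2C as in H3WT. With any annotated start of the gene counted in place of the 5′ end, 8 of 9 lists had a start peak in place of 7, because 1 peak of H3R2C replicate 3 met a start inside the gene.

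Loss of the start-site peak in H3R2C was common among marked genes. Of 1942 genes with a start-site H3K27me3 peak in both H3WT lists, 507 (26.1%) had none in either H3R2C list, and Plxnc1 was 1 of these. With the peak also required in the 5 lists of the other mutants, 262 genes had the pattern of Plxnc1.

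**Figure D3:**
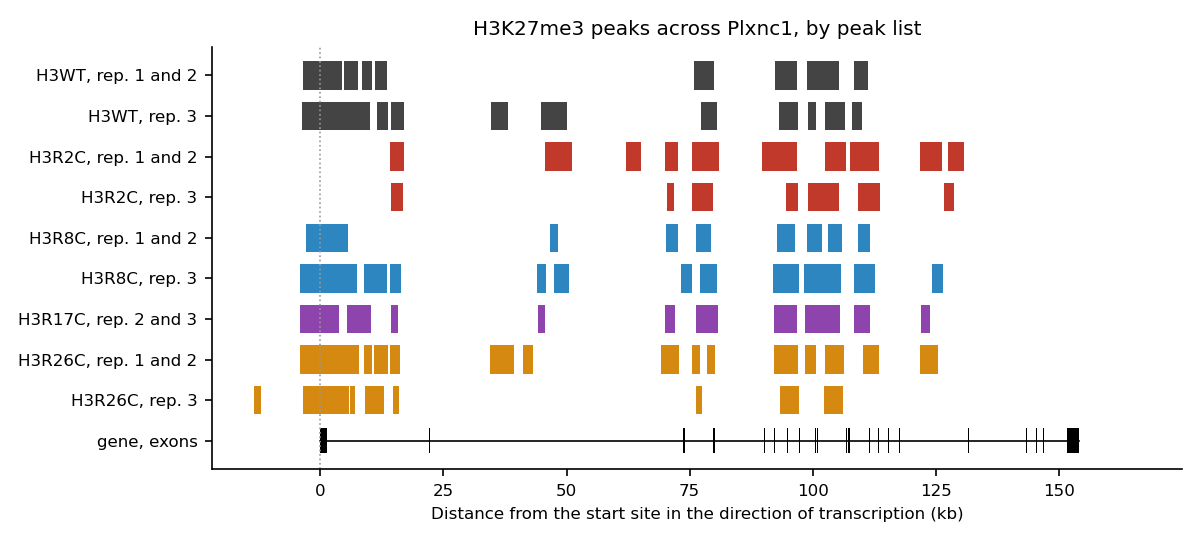
H3K27me3 peaks (coloured blocks) in the 9 lists across Plxnc1, by distance from the start site in kb along the direction of transcription, with exons in black on the bottom line. Peaks over the start at 0 kb are present in the 7 lists that are not H3R2C, and in H3R2C the first peak begins at 14.2 kb or 14.4 kb while peaks between 70 kb and 114 kb are present.

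Plxnb1, the receptor of Sema4d, lies at chr9:109095389-109119917 on the plus strand and shares its window with Tma7, Ccdc51 and Fbxw21. It had no H3K27me3 over its body or start in any of the 9 lists. Its window signal came only from peaks 35.2 kb to 43.1 kb downstream of its start, beyond the end of the gene: 0.354 and 0.0956 in H3WT, 0.107 in 1 of the 2 H3R8C lists, 0.0886 in H3R17C, and none in H3R2C and H3R26C. All but the first of these values were near the weakest peak a list could hold. The most alike gene for Plxnb1 was Il13ra1 (r = 0.939), and for Plxnc1 it was Zfp300 (r = 0.926), whose mean signal was at most 0.141 in any genotype. The other 4 plexin genes had no H3K27me3 values to compare.

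Anti-HA lists show where the tagged H3 itself was found. HA signal was fitted with limma over 13638 gene windows with peaks in both lists of at least 1 genotype, with Benjamini-Hochberg adjustment over all of them. Plxna1 did not pass that filter, with HA signal of at most 0.136 in any list. In the H3R2C comparison 3 of the other 6 plexin genes rose, Plxnc1, Plxnb2 and Plxna4, and none fell, where 17% of all windows rose and 3.17% fell. Plxna4 was among the 6 only because both H3R2C lists had peaks there, so the filter favoured a rise at that gene. The median log2 difference was 0.80 over these 6 genes with Plxna4 included, and 0.30 over all windows. Without Plxna4 the differences were -0.52 at Plxna2, -0.19 at Plxnb1, 0.32 at Plxnd1, 1.29 at Plxnb2 and 2.39 at Plxnc1. Their middle value, 0.32, was close to the median of all windows. Dividing by the total of each list in place of the median window moved that median of all windows to -0.30, with 42% of the calls higher in H3R2C in place of 84.3%, so the direction of moderate HA differences in H3R2C depends on the scaling.

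Plxnc1 had scaled HA signal of 2.06 and 1.77 in the H3R2C lists and of 0.245 and 0.0928 in the H3WT lists. The other mutants had 0 to 0.251, so the H3R2C lists stood above all 8 others, an order not counted over all windows. Each H3WT value came from 1 peak near the weakest of its list (0.221 and 0.0780), below which no peak is listed. The log2 difference to H3WT was 2.39 ± 0.50 (SE, n = 2 lists each; adjusted p = 0.00834 by limma). It was 1.62 (adjusted p = 0.0470) with scaling by list total, 2.66 (adjusted p = 0.0531) without the H3WT list of replicates 1 and 2 and 2.13 (adjusted p = 0.0553) without the other H3WT list, and the adjusted p ran from 0.00323 to 0.0553 over 17 alternatives. The H3R2C lists held 22 HA peaks of 0.6 kb to 3.5 kb spread along the Plxnc1 window, of which 8 overlapped an H3K27me3 peak of H3R2C, and none lay over the start site.

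Plxnb2 had HA signal of 2.83 and 2.36 in H3R2C and of 0.808 and 1.02 in H3WT, and the other mutants lay between 0.685 and 1.35, an order not counted over all windows. Its log2 difference in H3R2C was 1.29 ± 0.32 (SE; adjusted p = 0.0158 by limma). With scaling by list total it was 0.29 (adjusted p = 0.527) and without the H3WT list of replicates 1 and 2 it was 1.16 (adjusted p = 0.104), and the adjusted p ran from 0.00989 to 0.527 over 18 alternatives. The Plxnb2 window also holds Mapk12, Mapk11 and Dennd6b, and most of its HA peaks lay outside the Plxnb2 body.

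Plxna4 had HA signal of 1.12 and 0.121 in H3R2C, 0.130 in 1 H3R17C list, and was listed at 0 in both lists of H3WT, H3R8C and H3R26C. The H3R2C difference on the log2(signal + 0.25) scale was 1.51 ± 0.46 (SE; adjusted p = 0.0380 by limma), a value that depends on the pseudocount because H3WT is at 0. Plxna4 passed the filter only through H3R2C, the genotype called higher, so this test cannot support the rise. The lower H3R2C value, 0.121, came from 1 peak near the weakest of that list (0.108). The weakest peak of the H3WT list of replicates 1 and 2 stood at 0.221. As a call, the Plxna4 difference was not stable. It passed in 5 of 16 alternatives, with adjusted p from 0.00149 to 0.229, and not without the H3WT list of replicates 1 and 2 (adjusted p = 0.202) or the other H3WT list (adjusted p = 0.152). The 6 HA peaks were 0.45 kb to 1.75 kb long, in introns except 1 over an exon, and 1 of them overlapped an H3K27me3 peak. That peak lay between 8.84 kb and 10.6 kb downstream of the start, and no list had an HA peak over the start site of Plxna4.

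Without the H3WT list that stood apart, 0 of 14108 windows passed in H3R2C by limma, while 3513 had an unadjusted p under 0.05, so none of the 3 plexin calls held in that fit. There H3WT is a single list that is assumed to vary like the other genotypes.

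**Figure D4:**
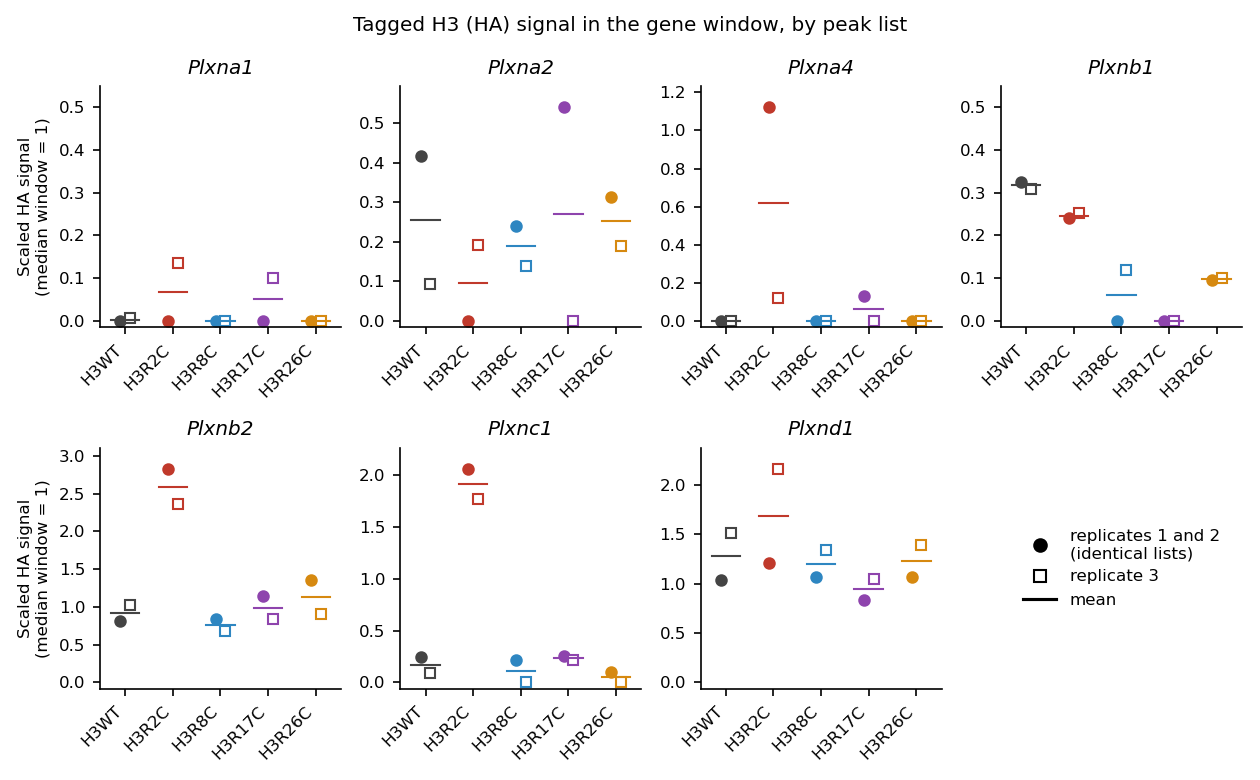
Scaled HA signal (y axis, 1 is the median marked window of a list) at the 7 plexin genes by genotype, with filled circles for replicates 1 and 2, open squares for replicate 3 and bars for means; each panel has its own scale. With this scaling the H3R2C lists stand above all other lists at Plxnc1 and Plxnb2, an order not counted over all windows. Plxnd1 has signal in every list.

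No plexin gene passed in H3R8C, H3R17C or H3R26C by limma, where 0% of all windows passed in each, with 1407, 1961 and 2023 of 13638 windows at an unadjusted p under 0.05. At that unadjusted level 1, 1 and 0 of the 6 plexin genes were found. That gene was Plxnb1, whose HA signal was 0.326 and 0.308 in H3WT and 0 and 0.119 in H3R8C. The signal was 0 and 0 in H3R17C and 0.0953 and 0.101 in H3R26C. All these mutant values of Plxnb1 lay below H3WT, an order not counted over all windows. Its log2 difference was -0.90 ± 0.33 in H3R8C, -1.18 ± 0.33 in H3R17C and -0.70 ± 0.33 in H3R26C (SE; adjusted p = 0.383, 0.154 and 0.351 by limma). Without the H3WT list of replicates 1 and 2 these differences were -0.88, -1.16 and -0.68 (adjusted p = 1, 0.534 and 0.780). In H3R2C it was 0.240 and 0.253.

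Plxnd1 had the most even HA signal of the 7 genes, between 0.835 and 2.16 in the 10 lists, and the groups overlapped in every comparison. Peaks covered 65.9% and 36.3% of the Plxnd1 body in H3WT and 2.36% to 23.4% in the mutants, and the higher share of 65.9% came from the H3WT list with long peaks. The other H3WT list also had longer peaks than the mutants, at a median of 2.65 kb against 0.8 to 1.6 kb. Plxna2 ranged from 0 to 0.540, with overlap between H3WT and every mutant.

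Of 36 other genes of the pathway, 14 had H3K27me3 in the window in at least 1 list. These were 8 of 20 semaphorins, 0 of 2 neuropilins, both other plexins (Plxna3 and Plxnb3) and 4 of 12 partners inside the cell. Sema5b and Sema6b, 2 membrane-bound semaphorins, had a start-site peak in all 9 lists, and 11 of the 36 genes entered the H3K27me3 test over 8190 windows. In H3R2C, 2 of these 11 rose and 1 fell, where 21.2% of all windows rose and 14.3% fell, and their median log2 difference was 0 against 0.09 over all windows. Sema3g, 1 of the 2 that rose, had entered the test only through its H3R2C peaks. In H3R26C, 2 rose and 2 fell, where 11.2% of windows rose and 12.9% fell, with a median of 0.07 against 0. In H3R8C none of the 11 passed by limma, 5 had an unadjusted p under 0.05, and 2.91% of all windows passed.

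Sema5b fell in H3R2C, from 9.39 and 9.79 in H3WT to 6.27 and 6.45 (log2 difference -0.57 ± 0.16 SE; adjusted p = 0.0320). This call held in 8 of 16 alternatives, with adjusted p up to 0.107, and was lost without either list of H3WT, H3R2C or H3R8C, with whole peaks and with no filter. Gipc1, which codes for a PDZ adaptor bound by plexin tails, rose from 0.0965 and 0.104 in H3WT to 0.314 and 0.384 in H3R2C (0.77 ± 0.12; adjusted p = 0.00319). Sema3g rose from no peak to 0.0862 and 0.0993, close to the weakest peak of those lists (0.46 ± 0.06; adjusted p = 0.00219 by limma). Only the H3R2C lists had an H3K27me3 peak in the Sema3g window. Sema3g thus entered the test only through the genotype called higher, so this test cannot support the rise. The Gipc1 and Sema3g calls held in all 14 alternatives in which each was fitted. Sema5b was fitted in 16, but Gipc1 and Sema3g dropped out of some, such as the fit with signal in every list. Neither Gipc1 nor Sema3g had a start-site peak in any list, and their windows hold other genes.

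In H3R26C, Sema6a, a ligand of Plxna4, rose from 0 and 0.212 in H3WT to between 0.691 and 1.11 (log2 difference 1.74 ± 0.36 SE; adjusted p = 0.0171). The Sema6a call held in 8 of 15 alternatives, with adjusted p up to 0.154, and was lost without the H3WT list of replicates 1 and 2 (adjusted p = 0.0719), without H3R26C replicate 3 (adjusted p = 0.114), without any 1 list of H3R2C or H3R8C and with no filter. Its window also holds Commd10. Sema6d, the ligand of Plxna1 in the heart, rose from no peak to between 0.248 and 0.346 (1.12 ± 0.13; adjusted p = 0.00295). Sema3f, which signals through Nrp2, fell from 0.407 and 0.610 to no peak (-1.59 ± 0.22; adjusted p = 0.00494), in a window shared with Gnat1 and Slc38a3 and with no start-site peak of Sema3f in any list. At Gipc1 the H3WT values were 0.0965 and 0.104, near the weakest peaks of the H3WT lists (0.0805 and 0.0791). The weakest peak of H3R26C replicate 3 stood higher, at 0.110, so that list could hardly show a peak of the H3WT size. Gipc1, named after its values were seen because it was the only other gene called, also had no peak in H3R26C (-0.49 ± 0.12; adjusted p = 0.0272). That call held in 10 of 14 alternatives and was lost with the stricter peak threshold (adjusted p = 1), pseudocount 1, no filter and without H3WT replicate 3. These are limma values, and a gene with no peak in a group takes a log2 difference that depends on the pseudocount.

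For HA, 28 of the 36 genes were tested, and in H3R2C 4 rose and 1 fell by limma, where 17% of all windows rose and 3.17% fell. Their median log2 difference was 0.01 against 0.30 over all windows. Sema5a, a membrane-bound semaphorin, had HA signal between 2.15 and 6.06 in H3R2C and of 0.0792 and 0.524 in H3WT (2.95 ± 0.56; adjusted p = 0.00650). The call held in 14 of 17 alternatives and was lost without either H3WT list or the H3R2C list of replicates 1 and 2. Plxnb3, the receptor of Sema5a, fell from 0.790 and 1.10 to 0.231 and 0.339 (-1.16 ± 0.38; adjusted p = 0.0499). This call held in only 2 of 18 alternatives, with adjusted p up to 0.380. Arhgef12, which codes for a partner of class B plexins inside the cell, rose from no peak to 0.104 and 0.345 (0.88 ± 0.27; adjusted p = 0.0380), a call that held in 6 of 15 alternatives, with adjusted p up to 0.163. The lower Arhgef12 value lay below the weakest peaks of the H3R2C lists (0.166 and 0.108), so it came from part of a peak. The weakest peak of the H3WT list of replicates 1 and 2 stood at 0.221. The windows of Plxnb3 and Arhgef12 hold other genes. The remaining 2, Arhgef11 and Rnd1, were named after their values were seen and had log2 differences of 0.65 and 0.75, with that of Rnd1 turning to -0.31 under scaling by list total, and these calls held in 6 of 15 and 6 of 18 alternatives. Arhgef11 had no HA peak in H3WT and 0.108 and 0.179 in H3R2C, near the weakest peaks of the H3R2C lists. Without the H3WT list of replicates 1 and 2 none of these 5 calls passed: the log2 differences were 3.56 at Sema5a, -0.97 at Plxnb3, 0.88 at Arhgef12, 0.65 at Arhgef11 and 0.58 at Rnd1 (adjusted p = 0.0511, 0.208, 0.163, 0.145 and 0.190 by limma).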

How the data were processed

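By the study's methods section, the authors used Rsubread to align single-end reads against mm10, and then SEACR 1.3 (stringent) to call peaks in each sample. Per the labels, the deposited lists hold for each peak its position, total signal and maximum signal, in whole numbers that were not scaled between libraries. How reads were filtered was not given in the sources used here. Plexin members and lists of genes were chosen with earlier results of these data known, and the pathway genes named were, in each mutant, the 3 called with the largest log2 difference.

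Gene models were GENCODE M21, of the same build. The total signal of a peak was divided between window and outside by length. After log2(scaled signal + 0.25), limma 3.58.1 (lmFit and eBayes with trend) in R 4.3.3 was fitted with each mutant against H3WT, over 10 anti-HA lists or 8 anti-H3K27me3 lists, at an adjusted p under 0.05. H3R17C, with 1 usable anti-H3K27me3 list, was not in the second fit. The study modelled read counts, which lists do not hold. The study calls its CUT&RUN replicates biological, while the labels name no separate cultures and 2 of 3 lists per group were the same, so p-values measure the spread between the 2 lists that differed. Neighbouring windows can share peaks. The fit was tested on simulated data in which 200 windows were changed: at a log2 change of 2 it recovered 60% of those for HA (5624 windows) and 96% for H3K27me3 (4035 windows), and at a log2 change of 1 it recovered 9% and 59%. These windows had signal in every list, so the rates do not describe windows with no peak in some lists, among them those of Plxna4 and Plxnc1 for HA. Alternatives covered the peak threshold, whole peaks, pseudocount, scaling, filters, flank, any annotated start, the replicate number and each list in turn. The number of alternatives given for a gene covers only those in which that gene was fitted.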

Additional observations from a re-analysis of the deposited data

Results flagged for a closer look

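The H3R17C anti-H3K27me3 list of replicate 1, which no comparison uses, held peaks over plexin genes that had none in H3WT. They covered 24.7% of Plxna1, 20.1% of Plxna2, 34.2% of Plxnb2, 10.6% of Plxnb1 and 8.46% of Plxnd1, against 0% of these 5 genes in both H3WT lists, and a peak lay over the start sites of Plxnb1 and Plxnb2. The same list had no peak over Plxna4 or over the body of Plxnc1, the 2 genes with H3K27me3 in every other list. Its name gives another mark than its label, and which antibody it holds was not tested.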

How the results depend on the processing

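With 2 lists per genotype and read depth not used, precision rests on the spread between lists, and a gene below the level of its list is not seen. With only windows that had signal in every list, 823 windows were called for HA in H3R2C, 31 in H3R8C, 133 in H3R17C and 422 in H3R26C, with 1 plexin gene in H3R2C, and for H3K27me3 1452 in H3R2C, 81 in H3R8C and 1092 in H3R26C, with 1 pathway gene in H3R2C and 1 in H3R26C. With no filter the HA counts were 1074, 10, 77 and 28 and the H3K27me3 counts 936, 42 and 488, with 2 pathway genes in H3R26C. With no flank they were 1385, 34, 111 and 58 for HA, and 1527 in H3R2C and 744 in H3R26C for H3K27me3, with 2 pathway genes in H3R26C. The stricter peak threshold gave 84 and scaling by list total 120 HA calls in H3R17C. Rnd1 turned to -0.31 for HA in H3R2C with scaling by list total. The cause was not tested, apart from the number of windows tested, which the filters and the flank change by construction.

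Leaving out each list in turn gave 0 to 3602 HA windows called in H3R2C, 0 to 34 in H3R8C, 0 to 771 in H3R17C and 0 to 184 in H3R26C, with 0 to 3 plexin genes in H3R2C and 0 in the other mutants. The lowest H3R2C count came without the H3WT list of replicates 1 and 2. Plexin calls fell to 1 without the other H3WT list or the H3R2C list of replicates 1 and 2. For H3K27me3 the counts were 1806 to 2799 in H3R2C, 150 to 266 in H3R8C and 1113 to 1767 in H3R26C, with 2 to 4, 0 to 1 and 3 to 4 pathway genes.

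The replicate number as a block gave 2853 HA windows called in H3R2C with 3 plexin genes, 2 in H3R8C, 1 in H3R17C and 7 in H3R26C, and 2969, 196 and 1940 H3K27me3 windows in H3R2C, H3R8C and H3R26C. The labels do not tie equal numbers to a shared batch, and deviations of equal numbers correlated between genotypes by -0.0879 to 0.196 for HA and -0.0596 to 0.323 for H3K27me3.

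At Plxna4 the H3R2C to H3WT difference of 2.72 on the log2(signal + 0.25) scale was 2.96 with the stricter threshold, which left 7 of 9 lists with a start-site peak, and the H3R26C difference of 1.74 was 1.31 with no flank. Of 391 single values recomputed, 278 stayed on their side of the threshold or within 1 SD, 84 fell below the threshold with the same direction, 28 moved by more and 1 reversed.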
